A study of Mus musculus with 6 samples.

Results

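Collagens, laminins and the glycoproteins that bind them were described here in N9 microglia, an immortalized mouse microglial cell line, at the level of RNA. The 66 genes were the protein-coding genes of the deposited count table whose symbols name a collagen chain, a laminin chain, a thrombospondin, or 1 of Fn1, Tnc, Sparc, Fbn1, Fbn2, Vcan and Bgn, out of 54532 genes in all. They comprised 44 collagen chains, 11 laminin chains, 4 thrombospondins and those 7 glycoproteins and proteoglycans. The question was which of these matrix genes the cells transcribe, and which changed on stimulation with LPS, the lipopolysaccharide of bacterial outer membranes that is sensed by Toll-like receptors. RNA-seq had been done on 3 libraries of unstimulated control N9 cells and 3 libraries of N9 cells stimulated with LPS at 1 µg/ml for 6 h. Both groups are the same line, so they stand for 1 cell line and not for several mice, and no source used here says whether the libraries came from separate cultures. The p-values therefore measure the spread between these libraries, which may be technical.

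The extracellular matrix is built from large secreted proteins that assemble outside the cell. Collagens are trimers of chains wound into a triple helix: fibrillar collagens (types I, II, III, V and XI among others) form the fibres of connective tissue, and collagen IV forms the network of basement membranes, the thin sheets under epithelia and around blood vessels. Laminins are the other network of basement membranes, and each laminin is a trimer of 1 alpha, 1 beta and 1 gamma chain. Fibronectin, thrombospondins, SPARC, tenascin C and the proteoglycans biglycan and versican bind these networks and cells. In the brain the basement membrane of blood vessels is the main site of laminin and collagen IV, while fibrillar collagens are made chiefly by fibroblasts of the meninges and vessels.

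Total counts per library lay between 16363767 and 17956772, so that 3 counts, the limit that a count of 0 allows, corresponded to between 0.161 and 0.19 CPM, the counts in each 1000000 counts of the library. Such limits and the intervals given below cover counting error only. The line was checked against 18 genes of microglia and macrophages, of which 13 passed the filter on low counts. Their summed level was 2730 to 2890 CPM in the 6 libraries, and Csf1r, the receptor for the growth factor of macrophages, had 7140 to 8027 counts. Markers that define resting brain microglia were low: Tmem119 had 142 to 177 counts and P2ry12 had 3 to 6 counts per library. Of 10 endothelial markers, 5 had 3 counts or fewer over the 6 libraries, and 2 of these 5 had none. The list summed to 106 to 117 CPM in control and 98.6 to 111 CPM in LPS libraries, nearly all of it Flt1 and Vwf. The 8 astrocyte markers summed to 194 to 211 CPM, nearly all of it Aldoc, Gja1 and Aldh1l1, while Gfap had 0 to 10 and Aqp4 0 to 2 counts per library. Transcripts of other cell types were counted unevenly between libraries. Of 14 fibroblast markers, 2 were at 0 and only Acta2 passed the filter; the list summed to 5.56 to 8.81 CPM in control and 4.63 to 9.95 CPM in LPS libraries, and most of that was Acta2, a smooth muscle actin. Of the defining fibroblast proteoglycans, decorin (Dcn) was counted in all 6 libraries, with 17, 2 and 19 counts in control and 5, 3 and 3 in LPS libraries. Lumican (Lum) was counted in control replicates 1 and 3 and LPS replicate 1 alone, with 9, 0 and 10 in control and 6, 0 and 0 in LPS libraries. Dpt and Mfap5 were counted in the same libraries as Lum. Dpt had 1, 0 and 1 counts in control and 3, 0 and 0 in LPS libraries, and Mfap5 had 1, 0 and 2 and then 1, 0 and 0. Prrx1 had 1, 0 and 0 counts in each group. Others of the list did not follow Lum. Pdgfra had 1, 2 and 4 counts in control and 4, 6 and 9 in LPS libraries, and Pi16 had 4, 9 and 13 and then 6, 2 and 0. Thy1 had 2, 0 and 1 and then 5, 4 and 0, and Postn had 16, 0 and 2 and then 3, 2 and 2. Pdgfrb had 2, 0 and 4 and then 2, 1 and 3, and Fap had 0, 0 and 4 and then 1, 2 and 0. Albumin (Alb), the liver plasma protein, had 2, 155 and 292 counts in control and 2, 0 and 0 in LPS libraries. Keratin 8 (Krt8), of simple epithelia, had 37 counts in control replicate 2, 36 in LPS replicate 3 and at most 4 in the others.

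Few matrix genes were transcribed at more than a trace, and most of the signal was 1 laminin chain. In control cells, on a scale of level per length (CPM per kilobase of the deposited gene length, SD, n = 3), Lamc1 stood at 115 ± 11.8, followed by Thbs3 at 7.63 ± 0.6, Col4a5 at 4.32 ± 0.329, Col7a1 at 1.42 ± 0.135, Col4a6 at 1.21 ± 0.0401, Col16a1 at 0.753 ± 0.0672 and Col23a1 at 0.481 ± 0.133. Neighbours in this order did not overlap between their control libraries. Below Col23a1 the order mostly could not be told apart: among the 22 neighbouring pairs of the 23 genes tested, 7 had control libraries that did not overlap. Lamc1 took 84.2% to 88.3% of all counts on the 66 genes in the 6 libraries. Its level per kilobase was 15.1 times that of Thbs3.

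**Figure D1:**
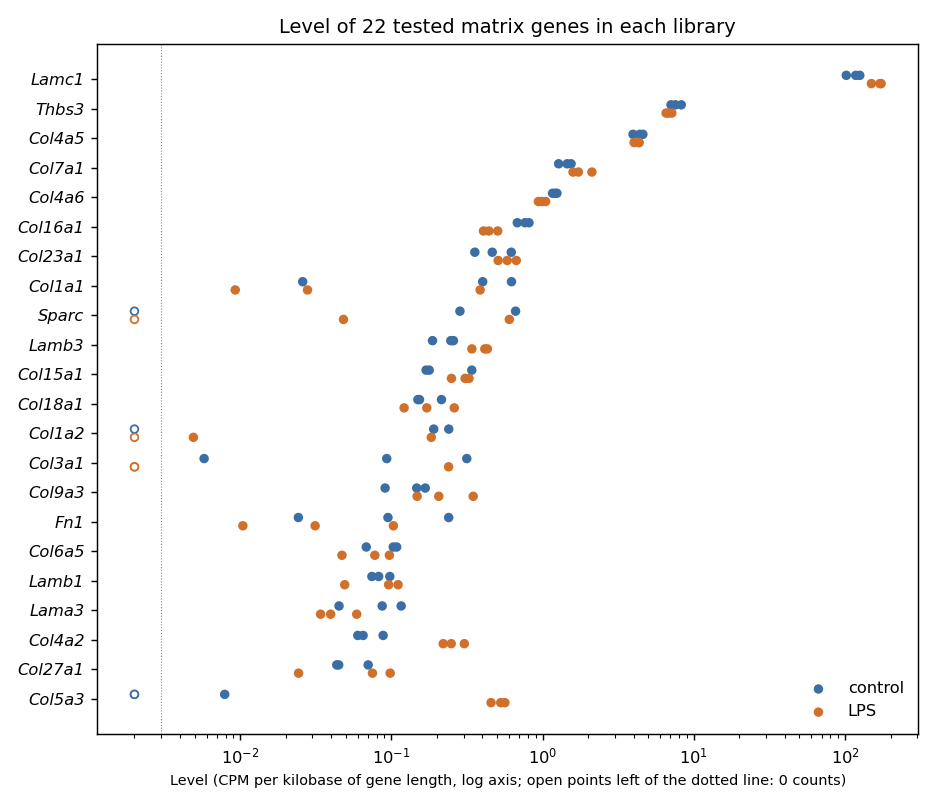
Level of 22 matrix genes tested, in CPM per kilobase on a log axis, with 1 point per library for 3 control and 3 LPS libraries. Lamc1, at 115 CPM per kilobase in control cells, stands apart from Thbs3 at 7.63, and the collagens lie at or below the 4.32 of Col4a5.

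Of the 66 genes, 23 passed the filter on low counts and were tested with the other genes (15 of them collagen chains, with laminin chains, Thbs3, Fn1 and Sparc). LPS changed 7 of them at an adjusted p under 0.05 by edgeR's quasi-likelihood test (30.4%, against 34.3% of all 12296 genes tested). Of these, 6 rose (26.1%, against 18.7% of all genes) and 1 fell (4.35%, against 15.7%). Among the genes that rose were the laminin chains Lamc1 and Lamb3 and the collagen chains Col5a3, Col4a2 and Col7a1, and the gene that fell was Col16a1. Col5a3 and Col4a2 also passed an absolute log2 fold change of 1.5 and so were differentially expressed genes (DEG) by both thresholds (8.7%, against 2.65% of all genes). Control and LPS libraries did not overlap for 8 of the 23 (34.8%, against 45.3% of all genes), the 7 genes called and Col4a6. The median log2 fold change of the 23 was 0.0029 and that of all genes tested was 0.0036, so that the median, like the share called with both directions pooled, lay near that of the whole transcriptome. Col5a3 and Col4a2, low in control cells and higher with LPS, passed the filter because of their LPS libraries. Col5a2 and Col4a1, lower in every LPS library, did not pass it. The share of 8.7% by both thresholds therefore does not show a stronger response of matrix genes to LPS. These counts describe the 23 and not all 66 genes.

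**Figure D2:**
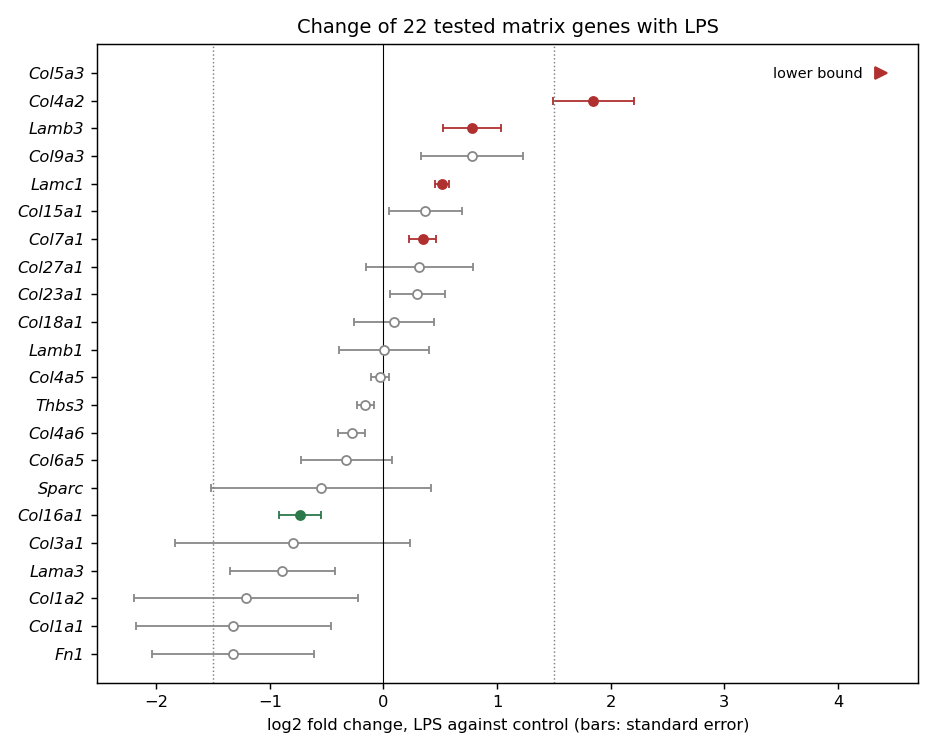
Log2 fold change of LPS against control for 22 matrix genes tested, with bars of 1 standard error and dotted lines at 1.5 in either direction. Filled points passed an adjusted p under 0.05, red for higher and green for lower, and the arrowhead of Col5a3 marks the lower bound of 4.38 set by 3 counts per control library.

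The most abundant of the 66 transcripts was a laminin chain that rose with LPS. Lamc1 (ENSMUSG00000026478, chr1:153218922-153332786, minus strand) encodes the gamma chain shared by most laminins. Control libraries gave 843.7, 1036 and 973.4 CPM, and LPS libraries 1237, 1408 and 1434 CPM. The groups did not overlap, with LPS higher, and the mean went from 950.9 ± 97.9 to 1360 ± 107 CPM (SD, n = 3). The log2 fold change of Lamc1 was 0.52 (SE 0.07; adjusted p = 1.85e-05, edgeR), a 1.43-fold rise. A processed pseudogene on the opposite strand inside Lamc1, Gm8818, had 18, 2 and 3 counts in control and 85, 64 and 52 in LPS libraries, against 14453 to 23547 counts of Lamc1 per library. The strand setting of the counting is not given in the sources used here.

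The beta and alpha chains that would complete a laminin trimer were far below Lamc1. Lamb3, the beta chain of the epithelial laminin (ENSMUSG00000026639, chr1:193207699-193343878, plus strand), had 28, 30 and 23 counts in control and 45, 45 and 37 in LPS libraries. Its groups did not overlap, at 1.52 ± 0.251 and 2.62 ± 0.319 CPM (SD, n = 3), and it rose 1.72-fold (log2 fold change 0.78, SE 0.26; adjusted p = 0.02987, edgeR). That call did not hold with DESeq2 (adjusted p = 0.116), nor in edgeR without control replicate 1 (adjusted p = 0.0564), control replicate 3 (0.13), LPS replicate 1 (0.103) or LPS replicate 2 (0.0978). Without the 3 libraries in which Lum was counted, which leaves 1 control library, Lamb3 had a log2 fold change of 0.54 and was not called. The deposited gene Lamb3 also spans other genes, among them Hsd11b1 on the opposite strand, with 16 to 24 counts per library. Lamb1, the beta chain of most basement membranes, had 14, 13 and 18 counts in control and 15, 18 and 8 in LPS libraries (log2 fold change 0.00, SE 0.39; adjusted p = 0.996, edgeR), and Lamb2 had 4, 4 and 6 in control and 0, 4 and 3 in LPS libraries.

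Among the 5 alpha chains, only Lama3, the alpha chain of the epithelial laminin, was tested. It had 16, 22 and 9 counts in control and 10, 6 and 7 in LPS libraries, with a log2 fold change of -0.89 (SE 0.46; adjusted p = 0.161, edgeR). Lama5, of mature vessel basement membranes, did not pass the filter and had 4, 1 and 2 counts in control and 7, 9 and 4 in LPS libraries. The groups of Lama5 met without overlapping once scaled, and its ratio of summed counts per depth was 3.14 (exact 95% interval 1.27 to 8.78, counting error only), while DESeq2 gave an adjusted p of 0.297. That ratio rested on 7 control counts, 4 of them in control replicate 1. Lama4 had 1 count in all, and Lama1 and Lama2 had none. Summed per kilobase, the beta chains stood at 0.358 CPM per kilobase in control cells and the alpha chains at 0.0958, so Lamc1 RNA was 321 times the beta and 1200 times the alpha chain RNA. With LPS the sums of the beta and alpha chains were 0.504 and 0.0804 CPM per kilobase.

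Collagen V is a minor fibrillar collagen that joins collagen I fibres and helps to start them, and its chain genes are Col5a1, Col5a2 and Col5a3. Col5a3 (ENSMUSG00000004098, chr9:20770050-20815067, minus strand) was counted 0, 0 and 1 times in control and 49, 59 and 63 times in LPS libraries. All LPS libraries were alike, at 3.106, 3.598 and 3.836 CPM, and the control libraries were at or under the limit that 3 counts set. Col5a3 was therefore at least 20.8-fold higher with LPS, against 3 counts per control library, and that bound lay between 19.9 and 22 when each library was left out in turn (adjusted p = 1.108e-07, edgeR). The nearest genes on either side did not share this pattern: Olfm2 had 6, 3 and 9 counts in control and 3, 3 and 7 in LPS libraries, and Rdh8 had none.

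The other collagen V chains were below the filter. Col5a2 had 16, 10 and 7 counts in control and 4, 1 and 2 in LPS libraries, lower in every LPS library, with a ratio of 0.233 (exact 95% interval 0.087 to 0.535). Without the filter edgeR gave it an adjusted p of 0.0365, and DESeq2 gave 0.0893. In edgeR without the filter, the spread of each gene was taken from all genes, with no weight on its own libraries. Col5a1, the chain of the most common collagen V, had 8, 0 and 4 counts in control and 6, 0 and 0 in LPS libraries, and was counted in the same libraries as Lum.

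**Figure D3:**
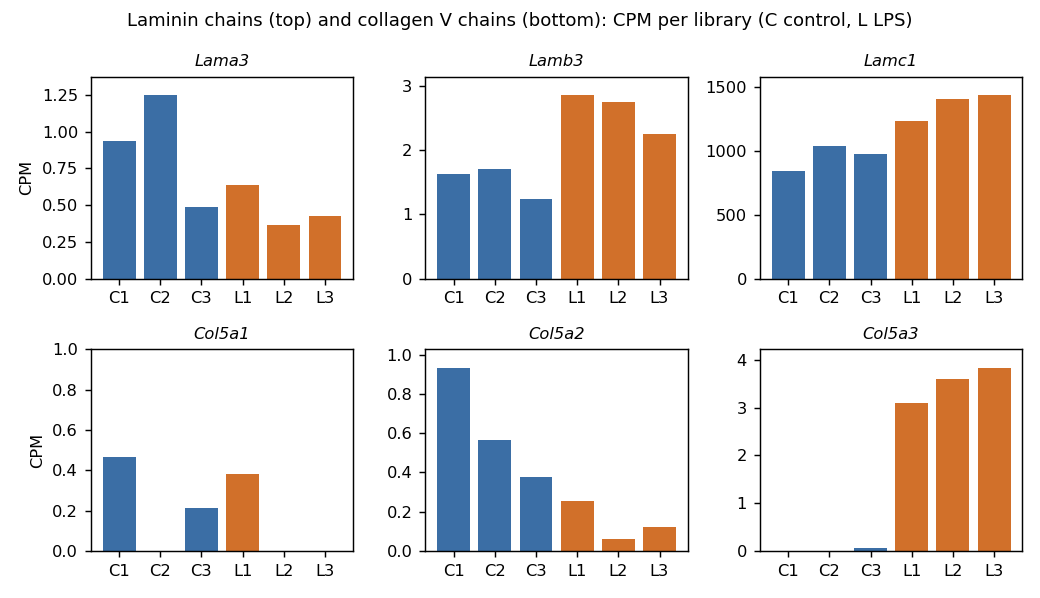
CPM of the laminin chain genes Lama3, Lamb3 and Lamc1 (top row) and of collagen V (bottom row), 1 bar per library, C for control and L for LPS, with an axis of its own for each gene starting at 0. Lamc1, Lamb3 and Col5a3 bars are taller in every LPS library than in any control library, at up to 1434, 2.85 and 3.836 CPM, while Lama3 and Col5a1 overlap between groups.

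The sequence before the start of Col5a3 is shown because this gene had the largest rise. Col16a1 alone of the 23 genes tested was called lower by edgeR with the filter on low counts, all libraries and no replicate term. The sequence of Col16a1 is shown for that reason. Each is the 250 bases before the RefSeq start on GRCm38.p6, read 5′ to 3′ on the gene's strand, and capitals mark the CCAAT motif. Col5a3 lies on the minus strand (chr9:20815068-20815317) and Col16a1 on the plus strand (chr4:130047590-130047839).
Col5a3: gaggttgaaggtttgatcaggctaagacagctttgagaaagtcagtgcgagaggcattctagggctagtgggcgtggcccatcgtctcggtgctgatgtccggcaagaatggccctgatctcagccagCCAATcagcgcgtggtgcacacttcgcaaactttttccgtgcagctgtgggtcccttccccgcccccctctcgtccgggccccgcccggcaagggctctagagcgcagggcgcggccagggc
Col16a1: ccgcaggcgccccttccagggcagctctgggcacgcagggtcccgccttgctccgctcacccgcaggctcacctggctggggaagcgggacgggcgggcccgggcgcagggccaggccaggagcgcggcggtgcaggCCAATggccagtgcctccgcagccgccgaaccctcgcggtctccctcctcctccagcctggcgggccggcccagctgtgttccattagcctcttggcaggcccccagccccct

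Of these stretches, 62.8% of bases before Col5a3 and 75.6% before Col16a1 were G or C, against a median of 52.4% over all promoters of the table. The motif CCAAT, added after these sequences had been read, began at position -122 from the start of Col5a3 and -113 from that of Col16a1. On either strand, in windows from 250 bases before to 50 after a start, it was found at 17 of the 53 start sites of the 48 matrix genes in the table (32.1%), against 37.4% of all 32851 start sites. A form of the NF-κB site (GGG, any 3 bases, then TTCC) was found at 2 of the 53 (3.77%, against 5.56%), those of Col16a1 and Col17a1. A form of the interferon-stimulated response element (GAAA, any 2 bases, then GAAA) was found at 1 (1.89%, against 3.44%), that of Fbn1, and the AP-1 form TGANTCA at 1 (1.89%, against 7.81%), that of Col6a1. Lamc1 was not in the table of promoters.

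Collagen IV genes lie in head-to-head pairs that share a start region, and of the chromosome 8 pair Col4a2 rose with LPS. Col4a2 (ENSMUSG00000031503, chr8:11312805-11449287, plus strand) had 10, 7 and 8 counts in control and 23, 27 and 33 in LPS libraries. All LPS libraries were higher, and the mean went from 0.47 ± 0.0997 to 1.71 ± 0.28 CPM (SD, n = 3), a 3.6-fold rise (log2 fold change 1.85, SE 0.36; adjusted p = 0.0009068, edgeR). Col4a1 (chr8:11198423-11312826, minus strand), the partner chain in the common collagen IV trimer, had 9, 6 and 7 counts in control and 3, 0 and 0 in LPS libraries. It was below the filter, all LPS libraries lay below the control libraries, and it was at least 2.23-fold lower against 3 counts per LPS library. Without the filter edgeR gave Col4a1 an adjusted p of 0.0576, and DESeq2 gave 0.122, so its decrease did not pass the threshold.

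The deposited Col4a1 and Col4a2 genes overlap by 22 bases at their starts, shown here because both genes begin within them (chr8:11312805-11312826, GRCm38.p6, plus strand, 5′ to 3′).
Col4a1 and Col4a2 shared start: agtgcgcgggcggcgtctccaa

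Of the counts on this pair, Col4a2 held 52.6%, 53.8% and 53.3% in the control libraries. In the LPS libraries it held 88.5%, 100% and 100%, with exact 95% binomial intervals of 69.8% to 97.6%, 87.2% to 100% and 89.4% to 100%. The control intervals spanned 25.1% to 80.8%, since the pair had only 13 to 19 counts per library. Rab20, the gene 4230 bases beyond the end of Col4a2 on the opposite strand, encodes a small GTPase and had 159, 156 and 160 counts in control and 300, 315 and 291 in LPS libraries (log2 fold change 1.06, SE 0.10; adjusted p = 8.607e-07, edgeR). Its part in the counts of Col4a2 was not tested. Among the endothelial markers, Kdr, a receptor for VEGF, had 2, 2 and 8 counts in control and 13, 19 and 21 in LPS libraries, and Cdh5, the cadherin of endothelial junctions, had 5, 2 and 5 and then 10, 13 and 9, while Cldn5 was at 0 and Pecam1 had 1 to 6 counts per library. Flt1, the most abundant of the list and another receptor for VEGF, had 1114, 1264 and 1237 counts in control and 816, 833 and 941 in LPS libraries, and the summed list was no higher with LPS. The part of these markers in the Col4a2 result was not tested.

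The X-linked pair, whose chains form the basement membrane of kidney and smooth muscle, was the more abundant collagen IV pair and did not pass the test. Its starts lie 1308 bases apart. Col4a5 had 456, 546 and 549 counts in control and 427, 479 and 477 in LPS libraries (log2 fold change -0.03, SE 0.08; adjusted p = 0.807, edgeR). Col4a6 had 9.282, 9.921 and 9.63 CPM in control and 7.479, 8.355 and 7.916 CPM in LPS libraries. Its groups did not overlap, but the log2 fold change of -0.28 (SE 0.12) missed the threshold (adjusted p = 0.0882, edgeR). The pair on chromosome 1, with starts 71 bases apart, was nearly silent: Col4a3 had 5, 2 and 4 counts in control and 3, 3 and 7 in LPS libraries, and Col4a4 had 0, 0 and 3 and then 1, 3 and 2.

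**Figure D4:**
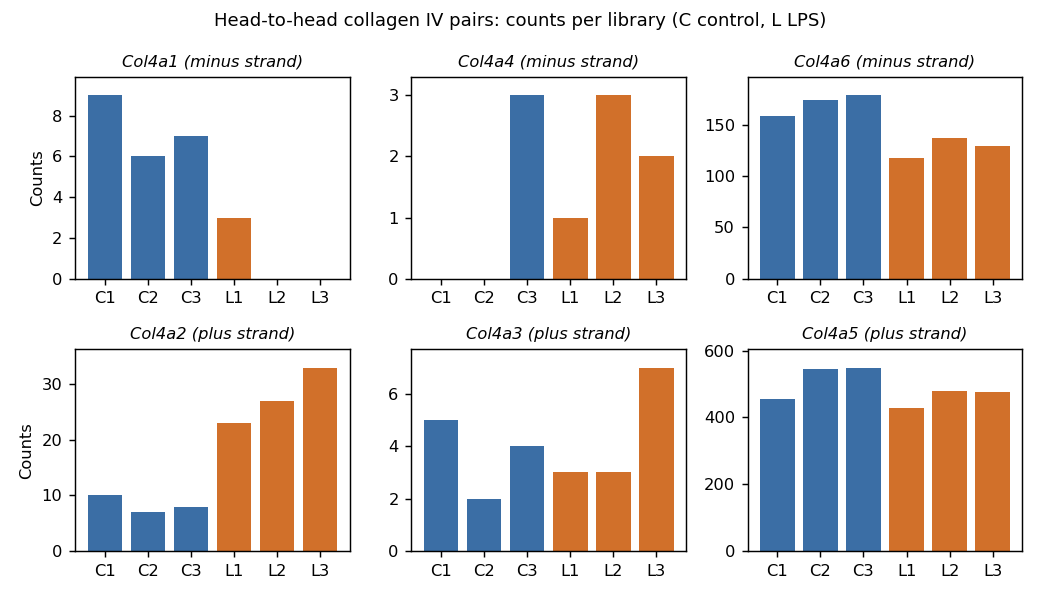
Counts of the collagen IV genes, 1 bar per library, C for control and L for LPS, with each head-to-head pair in 1 column, the minus strand gene above the plus strand gene, and an axis of its own for each gene starting at 0. Col4a2 has 7 to 10 counts in control and 23 to 33 in LPS libraries, Col4a1 has 0 counts in 2 LPS libraries, and Col4a5 has 427 to 549 counts in all 6.

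Col16a1 and Col7a1 were the other collagens that changed. Col16a1 (ENSMUSG00000040690, chr4:130047840-130099283, plus strand) encodes a collagen with interrupted triple helices that associates with fibrils. It had 94, 81 and 96 counts in control and 47, 45 and 56 in LPS libraries. Every LPS library was lower, and the mean went from 5.08 ± 0.454 to 3.04 ± 0.338 CPM (SD, n = 3), with a log2 fold change of -0.74 (SE 0.18; adjusted p = 0.005719, edgeR). Col7a1 (ENSMUSG00000025650, chr9:108953586-108984875, plus strand), the collagen of the anchoring fibrils of skin, had 13.13, 15.87 and 14.96 CPM in control and 16.35, 17.75 and 21.80 CPM in LPS libraries. The groups did not overlap, but the gap between them was smaller than either SD, at means of 14.6 ± 1.39 and 18.6 ± 2.83 CPM (SD, n = 3), and the rise was 1.27-fold (log2 fold change 0.35, SE 0.12; adjusted p = 0.0348, edgeR). It did not hold with DESeq2 (adjusted p = 0.0749), nor in edgeR without control replicate 1 (0.126), control replicate 3 (0.0813), LPS replicate 2 (0.0543) or LPS replicate 3 (adjusted p = 0.183). Without the 3 libraries in which Lum was counted, which leaves 1 control library, Col7a1 had a log2 fold change of 0.31 and was not called.

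Of the remaining collagens tested outside the fibroblast genes, none passed the threshold in edgeR. Col23a1, a transmembrane collagen, had 61, 47 and 38 counts in control and 46, 63 and 55 in LPS libraries (log2 fold change 0.29, SE 0.24; adjusted p = 0.387, edgeR). Col15a1 and Col18a1, basement membrane collagens that carry the endostatin-type domain, had 19 to 37 and 14 to 30 counts per library, with log2 fold changes of 0.37 (SE 0.32) and 0.09 (SE 0.35). Col9a3, Col6a5 and Col27a1 had 5 to 22 counts per library, and their log2 fold changes were 0.78 (SE 0.45), -0.33 (SE 0.40) and 0.31 (SE 0.47).

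The genes of interstitial connective tissue were counted in particular libraries of both groups. Col1a1 and Col1a2, the chains of collagen I, had 70, 3 and 49 and then 51, 0 and 44 counts in control libraries. In the LPS libraries they had 40, 3 and 1 and then 36, 1 and 0 counts. Both were high in control replicates 1 and 3 and LPS replicate 1, the libraries in which Lum was counted. Col3a1, of collagen III, had 53, 1 and 17 counts in control and 37, 0 and 0 in LPS libraries, and Sparc, a collagen-binding glycoprotein, had 43, 0 and 20 and then 36, 0 and 3. Biglycan (Bgn) had 7, 0 and 10 counts in control and 4, 1 and 1 in LPS libraries. The groups overlapped for all of these genes, and the log2 fold changes of Col1a1, Col1a2, Col3a1 and Sparc were -1.32 (SE 0.86), -1.21 (SE 0.98), -0.80 (SE 1.03) and -0.55 (SE 0.97). Without control replicate 1, those of Col3a1 and Sparc were 0.62 and 0.55. Without LPS replicate 1, those of Col1a1, Col1a2, Col3a1 and Sparc were -4.15, -5.57, -7.54 and -3.6. The part of fibroblast transcripts in these values was not tested.

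Fibronectin (Fn1), which fibroblasts and liver cells secrete, had 19, 5 and 52 counts in control and 19, 6 and 2 in LPS libraries (log2 fold change -1.33, SE 0.71; adjusted p = 0.175, edgeR). Its highest library, control replicate 3, was also that with the most Alb, at 292 counts, but control replicate 2, with 155 Alb counts, had 5 of Fn1, while control replicate 1 and LPS replicate 1, with 2 of Alb each, had 19. The part of liver transcripts was not tested. When 1 replicate was left out, the log2 fold change of Fn1 ranged from -2.5, without LPS replicate 1, to -0.313, without control replicate 3. Without LPS replicate 1, Col1a1, Col1a2, Col3a1 and Fn1 were called lower (adjusted p = 0.0115, 0.0163, 0.0184 and 0.0454, edgeR), and Fn1 was also called without control replicate 2 (adjusted p = 0.0375, edgeR). Without the filter on low counts, with all 6 libraries, Col1a1, Col1a2 and Fn1 were called lower (adjusted p = 0.00068, 0.0103 and 0.0151, edgeR), and with robust dispersion as well only Fn1 of these was (adjusted p = 0.0338, against 0.638 for Col1a1 and 0.727 for Col1a2). The calls on these genes therefore rest on which libraries are kept, on the filter and on the dispersion estimate. Without the 3 libraries in which Lum was counted, which leaves 1 control and 2 LPS libraries and assumes that the lone control varies like the others, Lamc1 and Col5a3 were still called (adjusted p = 0.00601 and 0.0148, edgeR). In that smaller comparison Col4a2 had a log2 fold change of 2.17 (adjusted p = 0.0863) and Col16a1 one of -0.59 (adjusted p = 0.239, edgeR).

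**Figure D5:**
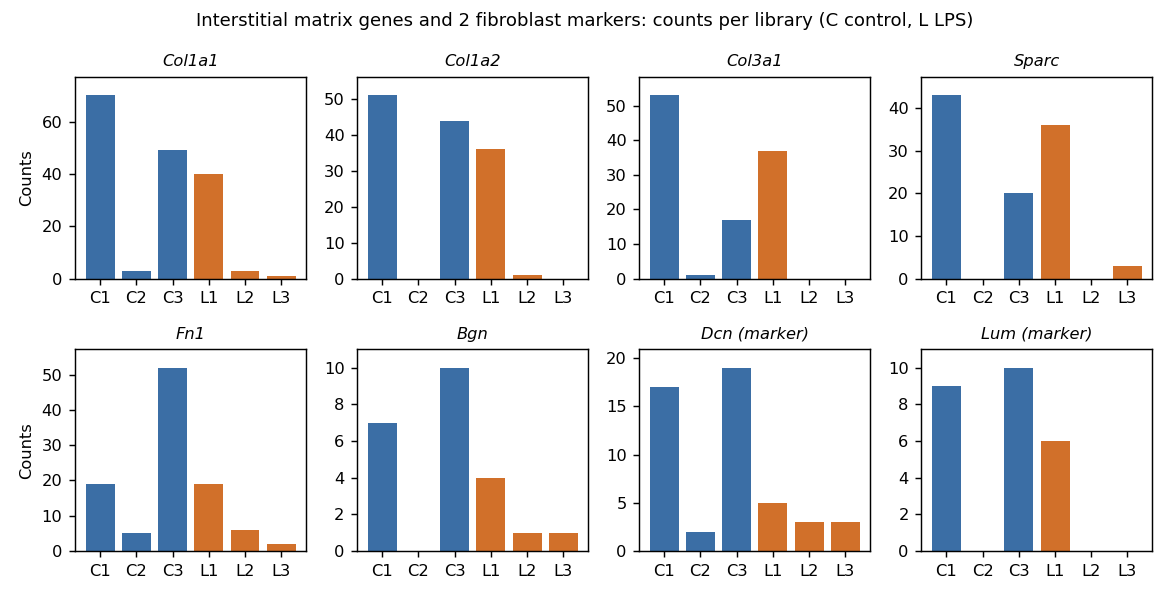
Counts of 6 interstitial matrix genes and of the fibroblast markers Dcn and Lum, 1 bar per library, C for control and L for LPS, with an axis of its own for each gene starting at 0. Col1a1, Col1a2, Col3a1 and Sparc are high in control replicates 1 and 3 and LPS replicate 1, at up to 70 counts, and at 3 counts or fewer in control replicate 2 and LPS replicates 2 and 3.

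Thrombospondins are secreted glycoproteins that bind matrix and cell surface receptors. Thbs3 (ENSMUSG00000028047, chr3:89215180-89226837, plus strand) was the only one above a trace, with 584, 703 and 678 counts in control and 517, 519 and 567 in LPS libraries. Its mean was 36.8 ± 2.9 CPM in control and 33.0 ± 1.45 CPM in LPS libraries (SD, n = 3), and the log2 fold change of -0.16 (SE 0.08) did not pass (adjusted p = 0.122, edgeR). It passed only without control replicate 1 (adjusted p = 0.0409, edgeR). Thbs3 overlaps Mtx1, on the opposite strand, which had 796 to 902 counts per library. Thbs1, the thrombospondin best known from platelets and macrophages, had 1, 0 and 2 counts in control and 2, 1 and 0 in LPS libraries. Thbs4 had 5, 0 and 5 and then 5, 4 and 1, and Thbs2 had 4 counts in control replicate 1 and none elsewhere.

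The 43 genes below the filter had at most 16 counts in any library, the highest being Col5a2. Of these, 22 had more than 3 counts over the 6 libraries, 11 had 1 to 3, and 10 had none. Vcan, which encodes versican, a large proteoglycan of loose matrix, had 5, 5 and 6 counts in control and 4, 10 and 11 in LPS libraries, and Tnc, which encodes tenascin C, had 5, 2 and 3 and then 2, 2 and 4. Fbn1, of elastic microfibrils, had 2, 0 and 6 counts in control and 8, 2 and 3 in LPS libraries. Col14a1 had 4, 6 and 6 and then 5, 3 and 3 counts, while Col6a1, Col6a2, Col6a3, Col11a2, Col12a1, Col17a1 and Col20a1 had at most 6 counts in any library. Those with 1 to 3 counts in all were Lama4, Lamc3, Col2a1, Col6a6, Col9a1, Col10a1, Col11a1, Col22a1, Col24a1, Col25a1 and Col26a1. The genes at 0 in every library were Lama1, Lama2, Fbn2, Col6a4, Col8a1, Col8a2, Col9a2, Col13a1, Col19a1 and Col28a1, which allows a level of up to 0.161 to 0.19 CPM in each library. Of the 21 among the 43 with 6 or more counts in all, the groups of 3 (Col5a2, Col4a1 and Lama5) did not overlap, which is 14.3%, against 13.9% of the 4380 genes of the table below the filter with as many counts.

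Most of the tested genes for making, exporting and cross-linking collagen, a list of enzymes with their helper and export proteins, did not pass the test. Of 34 such genes in the table, 17 were tested and 4 were called (23.5%, against 34.3% of all genes), 2 higher and 2 lower, and the median log2 fold change was 0.0016. P4ha1, a prolyl hydroxylase that stabilizes the triple helix, rose by a log2 fold change of 0.41 (SE 0.05; adjusted p = 8.863e-06, edgeR), and the lysyl hydroxylase Plod3 by 0.27 (SE 0.04; adjusted p = 0.0001771). The lysyl hydroxylase Plod1 fell by 0.40 on the log2 scale (SE 0.06; adjusted p = 0.0001298, edgeR), and the cross-linking oxidase Loxl3 fell by 0.53 (SE 0.11; adjusted p = 0.001731).

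Most of the tested receptors for the matrix changed. Of 34 receptor genes, 17 were tested and 13 were called (76.5%, against 34.3% of all genes), 8 higher and 5 lower, with a median log2 fold change of 0.14. Itga5, the alpha subunit of the fibronectin receptor, had 3704, 4302 and 4230 counts in control and 10449, 11335 and 11511 in LPS libraries, and rose 2.99-fold (log2 fold change 1.58, SE 0.05; adjusted p = 1.724e-12, edgeR). It was the 1 DEG by both thresholds among the 17 receptors tested, against 2.65% of all genes. Of the syndecans, cell surface heparan sulphate proteoglycans that bind laminin, collagen and fibronectin, Sdc1, Sdc3 and Sdc4 rose: Sdc1 went from 156.3 ± 11.74 to 410.0 ± 8.086 CPM, Sdc3 from 40.75 ± 1.018 to 103.2 ± 3.839 CPM and Sdc4 from 52.55 ± 5.138 to 104.2 ± 4.917 CPM (SD, n = 3). Their log2 fold changes were 1.39, 1.34 and 0.99 (adjusted p = 2.118e-11, 2.997e-11 and 1.696e-08, edgeR), and all LPS libraries were above all control libraries. The remaining syndecan gene, Sdc2, had 0, 2 and 6 counts in control and 3, 0 and 0 in LPS libraries and was not tested.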

How the data were processed

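RNA from unstimulated and LPS-stimulated N9 microglia had been extracted with a column kit and sequenced on an Illumina NovaSeq by Novogene. The authors deposited whole-number read counts per gene without normalization, with gene length, coordinates and biotype. The submitters' processing notes name featureCounts 1.5.0-p3 and the genome build mm10. The aligner, the strand setting and the annotation are not given in the sources used here. The table of the authors' own comparison holds fold changes and p-values and was not used.

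Samples were grouped by the labels, 3 per group. LPS was compared with control by edgeR 4.0.16 (R 4.3.3; quasi-likelihood test, TMM normalization, filterByExpr, prior count 0.125, no replicate term), with Benjamini-Hochberg adjustment over the 12296 genes tested. Called means an adjusted p under 0.05, and a DEG also has an absolute log2 fold change over 1.5. The SE is the absolute log2 fold change divided by the square root of F. CPM are counts in each 1000000 counts of the TMM-scaled library, and CPM per kilobase divides them by the deposited gene length. A gene at or under 3 counts in every library of a group is given as a bound. Intervals of count ratios and shares are exact (Clopper-Pearson, 95%, scipy 1.17.1).

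Named were the genes called, the 10 with the highest level per kilobase, those below the filter with 6 or more counts whose groups did not overlap, and the 4 called genes of each related list with the largest absolute change. The rise of Col5a3 was known from the study when this rule was written. The values of 1 matrix gene are not reported here. Members and lists were chosen with earlier results of these data known. Coordinates are those of the table, and 65 of the 66 agreed in position with GENCODE M21 (GRCm38), Fbn2 being the exception. Promoters are from RefSeq (GRCm38.p6), which held 48 of the 66 genes.

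The test was run on simulated counts for this comparison (54532 genes simulated), recovering 200 of 200 changed genes with 5 false calls among 12315 tested. Recovery at the counts, fold changes and spread between libraries of the matrix genes named here was not tested separately. Replicates of a group differed beyond sampling noise in every pair (chi-square per gene 3.58 to 7.83). Alternatives were DESeq2 1.42.0, RLE size factors, other filters, robust dispersion, protein-coding genes alone, a prior count of 2, a replicate block and each replicate left out, and, chosen after seeing the data, the 3 libraries in which the fibroblast marker Lum was counted left out. With 3 against 3, an exact permutation test of 1 gene cannot go below 0.1, so none was used. Figures used matplotlib 3.10.9 under Python 3.11.15.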

Additional observations from a re-analysis of the deposited data

How the results depend on the processing

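Lamc1 and Col5a3 were called in all 16 alternatives, and Col4a2 and Col16a1 in 15, all but the comparison without the 3 libraries in which the fibroblast marker Lum was counted. Col7a1 and Lamb3 were called in 10 of 16 each. The number of matrix genes called went from 7 to 5 with DESeq2 (3588 genes called in all, of 22311 in the fit), to 11 without the filter on low counts (4411 of 22311) and to 3 without those 3 libraries, where 1337 genes in all and 14 of the genes of the 3 related lists were called, against 4221 and 26, and where 1 matrix gene and 240 of 12839 genes in all passed both thresholds. Fewer libraries were compared there, and for the filter the cause was not tested. Leaving out 1 replicate gave 5 to 10 matrix genes called, 2 to 6 by both thresholds (6 without LPS replicate 1), 24 to 28 list genes, 3379 to 4081 genes in all and 353 to 377 by both thresholds. Of the 555 single-gene values under an alternative, 506 kept their direction and side of the threshold, 21 lost the call, 11 gained it and 17 changed sign, none of them called either with all libraries or under that alternative. When 1 replicate was left out, the log2 fold change ranged from -0.099 to 0.0104 for Col4a5, from -3.6 to 0.548 for Sparc, from -0.241 to 0.322 for Col18a1, from -7.54 to 0.622 for Col3a1, from -0.0865 to 0.699 for Col27a1 and from -0.231 to 0.282 for Lamb1. Lamb1, at 0.00 with all libraries, was also at -0.00181 with DESeq2, -0.00371 with RLE size factors, -0.00314 without the filter with either dispersion and -0.018 with the replicate block. The cause was not tested. Of the 10 matrix genes highest per kilobase, 9 were also the highest by CPM.

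With the replicate number as a block, 8 matrix genes and 4474 genes in all were called, and Col1a1 was added (log2 fold change -1.52, adjusted p = 0.0403, edgeR). The main fit had no replicate term, since the study stated none. Deviations of same-numbered libraries correlated at 0.138, 0.0496 and 0.0296 across 10458 genes. Control replicates 1 and 2 each correlated best with the LPS library of the same number, and control replicate 3 with LPS replicate 2 (0.0429). These small values do not settle whether the numbers pair the samples. A repeat count over protein sequences was not run. Lamb1, with 8 to 18 counts per library, had an SE of 0.39, so that a change of the size of that of Lamc1 (0.52) was not detectable at that depth.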

Other observations

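Other matrix genes, outside the collagens, laminins and thrombospondins, were counted from a list of 89 symbols, of which 83 were in the table and 19 were tested. Of these, 9 were called (47.4%, against 34.3% of all genes), 4 higher and 5 lower, with a median log2 fold change of -0.073. Tnn passed the filter through its LPS libraries alone, so these counts describe the 19 genes tested and not the whole list. The clearest change was in Tnn (ENSMUSG00000026725, chr1:160085029-160153580), which encodes tenascin N, a glycoprotein of the same family as tenascin C. Tnn had 1, 2 and 4 counts in control and 110, 119 and 124 in LPS libraries, and went from 0.129 ± 0.0796 to 7.26 ± 0.289 CPM (SD, n = 3). Its ratio of summed counts was 55.4 (exact 95% interval 26.6 to 139), with an adjusted p of 2.225e-09 by edgeR. Tnc itself had 2 to 5 counts per library. The most abundant gene of that list, named here after its values were seen, was Spp1, which encodes osteopontin, a secreted phosphoprotein of bone and macrophages. It stood at 9413 ± 72.6 CPM in control and 7142 ± 326 CPM in LPS libraries (SD, n = 3), and fell by 0.40 on the log2 scale (SE 0.03; adjusted p = 1.653e-08, edgeR).

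Agrn, which encodes agrin, a heparan sulphate proteoglycan of basement membranes that binds laminin gamma chains, had 161, 220 and 218 counts in control and 383, 394 and 412 in LPS libraries, and rose 2.18-fold (SE of the log2 fold change 0.11; adjusted p = 9.179e-07, edgeR). Lower with LPS were Matn3, a cartilage matrilin, with 34, 22 and 33 and then 12, 6 and 12 counts (log2 fold change -1.42, SE 0.37; adjusted p = 0.008031, edgeR), and Emilin1, an elastic fibre glycoprotein, with 182, 192 and 207 and then 76, 133 and 132 counts (log2 fold change -0.64, SE 0.17; adjusted p = 0.007823, edgeR). The Matn3 call was lost without LPS replicate 2 (adjusted p = 0.0542), and without the 3 libraries in which the fibroblast marker Lum was counted, which leaves 1 control and 2 LPS libraries, the log2 fold changes of Matn3 and Emilin1 were -1.19 and -0.44, and neither was called (adjusted p = 0.285 and 0.147, edgeR).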
